A study of Rattus norvegicus with 6 samples.

Results

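Glycosyltransferases of mucin-type and surface glycans were compared between 2 clonal rat cell strains. The genes were chosen by a rule on symbols, with earlier results of these data known. The rule took every probe set annotated with a single symbol of the Galnt, B3gnt, B4galt, B3gat, St3gal, St6gal, St6galnac, St8sia, Fut, Gcnt or Mgat families, and C1galt1 and C1galt1c1. B3galt5 was left out. This gave 99 of 31042 probe sets, reading 61 of 14217 genes. BDEsp-TDECC (TDECC), a cholangiocarcinoma strain, and BDEsp-TDESM (TDESM), a cancer-associated fibroblastic strain labelled as overexpressing Acta2, were each measured on 3 arrays. Both are single clones from tumours of Fischer 344 young adult male rats that had received BDEsp cells, spontaneously transformed cholangiocytes, into the bile duct. All 6 samples carry the same culture text, a 3-dimensional collagen gel co-culture, and the same mention of a pair of TGFb inhibitors, SB 431542 and LY2157299. The labels do not say which cultures received them, so no treatment was compared. Whether the arrays of a strain stem from separate cultures is not stated, and the p-values reflect array-to-array spread alone, possibly technical.

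Mucin-type glycans begin when a Galnt enzyme attaches GalNAc to a serine or threonine in the Golgi. C1galt1, with its chaperone C1galt1c1, adds galactose to form core 1, and Gcnt enzymes branch it. On N-glycans, Mgat enzymes set the number of branches, and B4galt and B3gnt enzymes build galactose and GlcNAc chains on them. Sialyltransferases and fucosyltransferases then cap the chains, and several of the capped forms, such as sialyl Lewis antigens, are known as serum or tissue markers of bile duct and pancreatic cancer. The same Golgi enzymes also build glycolipids and the linker of proteoglycans, which fibroblasts make in quantity.

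The strains matched their labels by marker genes: 10 of 10 measured epithelial markers were higher in TDECC and 12 of 12 measured fibroblast markers were lower. Over 32 leukocyte, endothelial and hepatocyte markers the median log2 level was 4.39 in TDECC and 4.24 in TDESM, which serves below as a rough background level. Their upper quartiles were 5.30 and 4.89, so a gene between median and upper quartile is not clearly above background. Of these 32, 3 were higher and 4 lower in TDECC. Of the 14 leukocyte markers S100a9 was higher (6.27, 9.34 and 9.75 in TDECC, against 3.58, 3.57 and 3.23 in TDESM), Ncam1 was lower by 1.23, and Ptprc stood at 3.68 in TDECC and 3.80 in TDESM. Their part in the results was not tested. Values are the log2 RMA levels deposited for each probe set; array medians lay between 5.80 and 5.86. A gene was read by its brightest probe set, and differences are TDECC minus TDESM with their standard error (SE). In bulk samples, fewer cells of a type and less RNA per cell cannot be told apart.

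The promoter windows of 4 genes are shown so that the sequence at the start of genes with large differences can be seen. They have the 2 largest differences each way among called genes with exactly 1 window, which leaves out St3gal1. Each window, from RefSeq on build GRCr8, runs 5′ to 3′ on the gene's strand from 250 bases before to 50 bases after the annotated start. Capitals mark matches on either strand to the E-box CACCTG (or CAGGTG), the GC box GGGCGG (or CCGCCC) and TATAAA (or TTTATA). The Mgat4a window lies at chr9:47262664-47262963 on the minus strand, that of Gcnt3 at chr8:79573508-79573807 on the minus strand, that of St3gal2 at chr19:55833106-55833405 on the plus strand and that of B3gnt2 at chr14:101034458-101034757 on the minus strand.
Mgat4a: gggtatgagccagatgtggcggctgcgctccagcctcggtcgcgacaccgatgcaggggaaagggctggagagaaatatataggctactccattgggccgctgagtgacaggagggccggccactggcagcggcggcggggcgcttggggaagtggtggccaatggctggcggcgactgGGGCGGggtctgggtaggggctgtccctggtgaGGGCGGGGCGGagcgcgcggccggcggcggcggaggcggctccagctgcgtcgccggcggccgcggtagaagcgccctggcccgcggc
Gcnt3: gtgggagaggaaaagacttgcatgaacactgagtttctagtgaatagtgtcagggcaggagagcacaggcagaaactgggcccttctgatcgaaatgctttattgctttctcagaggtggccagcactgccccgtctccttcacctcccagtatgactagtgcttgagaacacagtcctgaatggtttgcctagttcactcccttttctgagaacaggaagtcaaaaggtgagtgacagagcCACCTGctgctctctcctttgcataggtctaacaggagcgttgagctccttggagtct
St3gal2: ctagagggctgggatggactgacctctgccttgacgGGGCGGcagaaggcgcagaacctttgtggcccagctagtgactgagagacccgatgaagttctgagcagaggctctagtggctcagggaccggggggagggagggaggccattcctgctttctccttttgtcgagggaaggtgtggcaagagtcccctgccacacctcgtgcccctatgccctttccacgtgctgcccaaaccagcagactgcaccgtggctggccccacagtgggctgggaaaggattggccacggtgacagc
B3gnt2: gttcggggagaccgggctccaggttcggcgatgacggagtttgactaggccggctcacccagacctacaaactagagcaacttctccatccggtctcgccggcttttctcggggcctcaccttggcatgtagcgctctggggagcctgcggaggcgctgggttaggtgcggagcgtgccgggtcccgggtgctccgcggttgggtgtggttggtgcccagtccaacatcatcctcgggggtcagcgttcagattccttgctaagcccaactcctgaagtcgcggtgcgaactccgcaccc
The Mgat4a window held 3 GC boxes, 2 of which overlap each other, and the Gcnt3 window held 1 E-box and no GC box. The St3gal2 window held 1 GC box and the B3gnt2 window held none of the 3 motifs. GC boxes were present in 8701 of 24206 windows of genes with exactly 1 window (35.9%), E-boxes in 18.5% and TATAAA in 14.3%. Among the 46 glycosyltransferase genes with exactly 1 window the shares were 63.0%, 17.4% and 8.70%. By direction, a GC box was found in 6 of 10 genes higher in TDECC and 6 of 11 lower in TDECC, and an E-box in 2 of 10 and 3 of 11. A match describes only these letters in the window.

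Of the 61 genes, 12 were higher and 15 lower in TDECC by limma at an adjusted p of 0.05, that is 27 genes or 44.3%. Across all 14217 genes 42.7% passed, 20.6% higher and 22.1% lower, so the count of called glycosyltransferases lies near the background. At least 2-fold higher were 7 of the 61 (background 12.1%) and at least 2-fold lower 12 (background 13.4%). The groups did not overlap for 31 of the 61 (background 53.6%), and all 27 called genes were among these. The median difference was 0.07, against 0.00 over all genes, and the differences ran from -3.46 to 3.15, inside the range of -10.72 to 10.76 over all genes. Centring the arrays on the added poly-A control transcripts moved the median of all genes by 1.22. Under that scaling 10873 genes were higher and 898 lower, and of the 61 glycosyltransferases 46 were higher and 5 lower (St3gal2, St3gal1, B3gnt2, B4galt2 and St3gal4). Centring on housekeeping genes gave 15 higher and 12 lower, with 61.3% of all calls higher against 48.3% as deposited. Differences given below are read against the median gene as deposited. The count of higher genes fell to between 5 and 7 when 1 of the 3 TDESM arrays was left out. It was 6 without replicate 1, 7 without replicate 2 and 5 without replicate 3. The count of lower genes fell to between 11 and 12. Calls over all genes fell in the same fits, from 42.7% to 33.7%, 32.4% and 34% in that order. Whether the glycosyltransferases lost more calls than other genes was not tested.

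**Figure D1:**
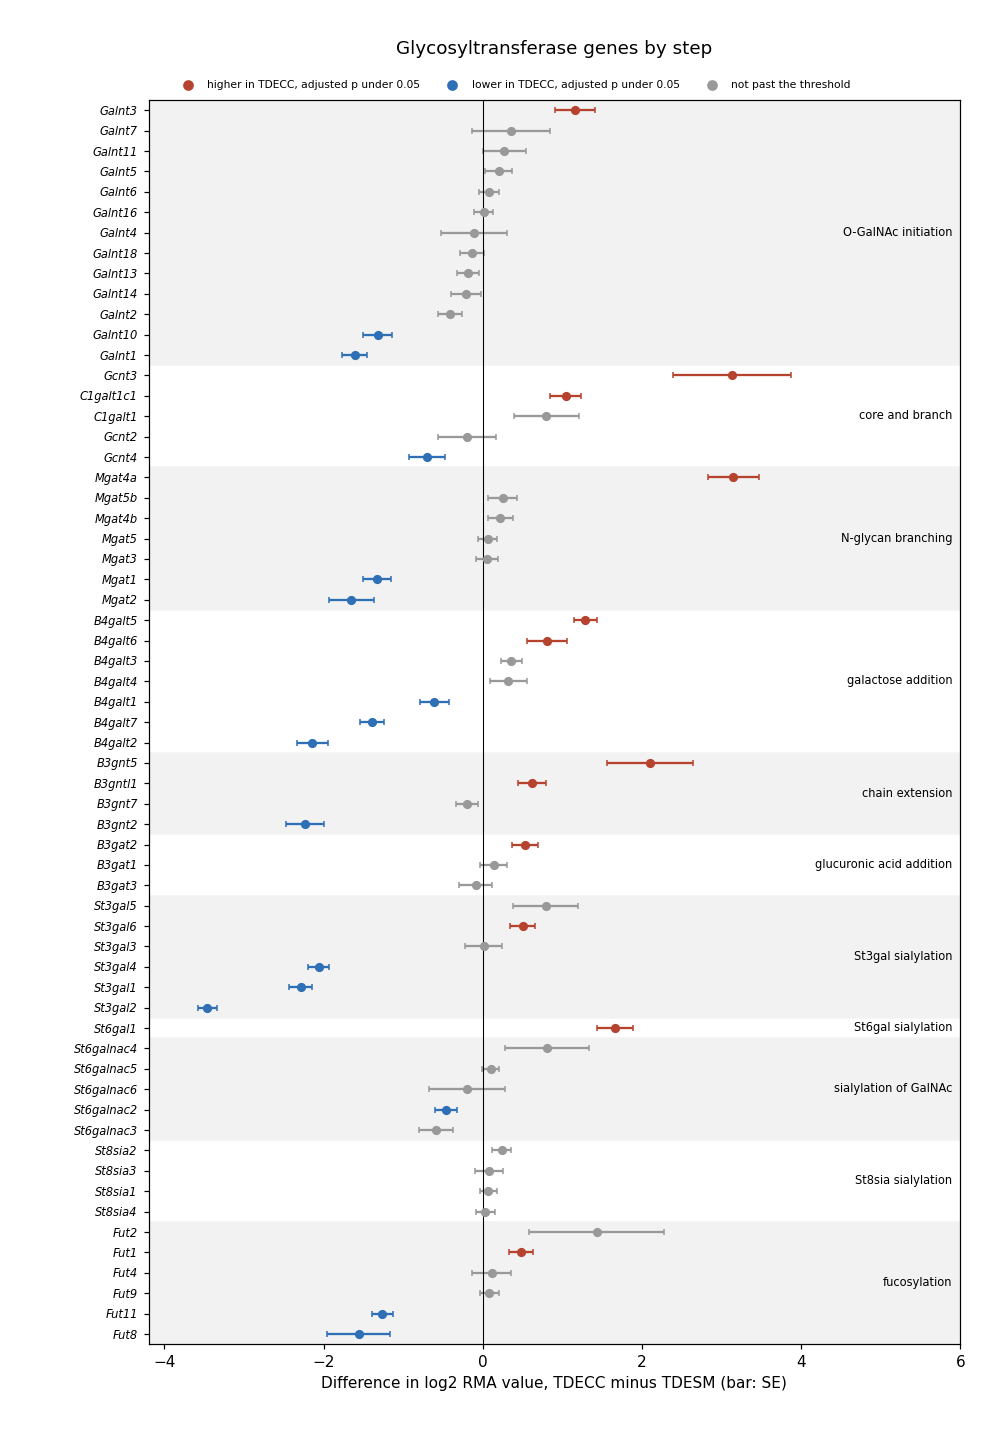
Difference in log2 RMA value, TDECC minus TDESM, for 61 glycosyltransferase genes (points) with the SE (bars), grouped by the step each family performs; red and blue mark genes past an adjusted p of 0.05. Most steps hold points on both sides of 0, from Mgat4a at 3.15 to St3gal2 at -3.46.

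Of the 6 St3gal sialyltransferases, which cap galactose, 1 was higher, 3 were lower and 2 were not called in TDECC. That is 66.7% called in a family of 6 genes, against 42.7% of all genes. St3gal1, St3gal2 and St3gal4 were lower in TDECC, while St6gal1, the enzyme that adds sialic acid to galactose in the alternative linkage on N-glycans, was higher by 1 of its 2 probe sets. St3gal1 and St3gal2 act mainly on the galactose of core 1 O-glycans, and St3gal2 also on gangliosides; St3gal4 acts on galactose-GlcNAc chains and takes part in making sialyl Lewis x. St3gal2 read 6.46, 6.59 and 6.47 on the TDECC arrays and 9.92, 10.08 and 9.90 on the TDESM arrays, a difference of -3.46 (SE 0.12, limma adjusted p = 1.01e-06). St3gal1 read 5.58, 5.32 and 5.80 in TDECC, against 7.76, 7.90 and 7.91 in TDESM (-2.29, SE 0.15, limma adjusted p = 2.81e-05). St3gal4 read 7.10, 7.06 and 6.88 in TDECC, against 8.92, 9.16 and 9.13 in TDESM (-2.06, SE 0.13, limma adjusted p = 2.06e-05). For each of the 3 the TDECC arrays lay close together and well below every TDESM array. All 7 probe sets of these 3 genes were lower in TDECC, with differences from -3.46 to -0.42, and the 3 genes were still lower under poly-A centring. St6gal1 read 10.26, 10.85 and 11.16 in TDECC, against 8.96, 9.18 and 9.14 in TDESM. The difference was 1.66 (SE 0.23, limma adjusted p = 0.00114), but a second, dimmer probe set of St6gal1 read 0.07.

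Of all 16 sialyltransferases measured, 2 were higher and 4 lower in TDECC, 37.5% against 42.7% of all genes. St3gal6 read 3.54, 3.70 and 3.88 in TDECC, against 2.99, 3.44 and 3.18 in TDESM, below the background level in both strains, and was higher by 0.50 (limma adjusted p = 0.0425). It did not pass with TDECC replicate 2 or 3 left out (adjusted p = 0.0786 and 0.0992), with TDESM replicate 1 or 3 left out (0.151 and 0.117) or centred on housekeeping genes (0.0583). St3gal5, which makes the ganglioside GM3, read 8.32, 9.73 and 8.21 in TDECC, against 7.78, 7.81 and 8.30 in TDESM (0.79, limma adjusted p = 0.169), so the groups overlapped; centred on housekeeping genes it passed (1.01, adjusted p = 0.0458). St3gal3 stood at 4.73 in TDECC and 4.72 in TDESM. St6galnac2, which adds sialic acid to the GalNAc of O-glycans, read 5.13, 5.20 and 5.37 in TDECC, against 5.68, 5.87 and 5.52 in TDESM. This fall of 0.46 (limma adjusted p = 0.0359) turned to 0.76 under poly-A centring; it ended when centred on housekeeping genes, when averaged over its 2 probe sets, and when TDECC replicate 1 or 2 (adjusted p = 0.0711 and 0.0737) or TDESM replicate 1 or 2 (0.103 and 0.140) was left out. St6galnac4, which makes disialylated core 1, read 10.54, 9.22 and 8.21 in TDECC, against 8.37, 8.57 and 8.61 in TDESM, a difference of 0.81 (limma adjusted p = 0.272) that passed without TDECC replicate 3 (1.36, adjusted p = 0.0320) and centred on housekeeping genes (1.03, adjusted p = 0.0292). The dimmer probe sets of St6galnac4 read 0.28 and 0.02 and were not called. St6galnac6 read 6.35, 7.98 and 6.01 in TDECC, around the TDESM values of 7.02, 6.85 and 7.06. Without TDECC replicate 2 its difference was -0.80 (limma adjusted p = 0.00844). St6galnac3 differed by -0.59 (limma adjusted p = 0.0621) and passed without TDECC replicate 2 (-0.76, adjusted p = 0.0220), with cyclic loess and with trend and robust estimation, and St6galnac5 by 0.10. The 4 St8sia genes, which build disialic and polysialic acid chains, stood near the background level in both strains. Their differences ran from 0.03 to 0.24 with 0 calls as deposited, but under poly-A centring they read 1.25 to 1.46 and were called higher. St8sia4, a polysialic acid synthase, read 4.11, 4.07 and 4.11 in TDECC, against 4.17, 4.11 and 3.93 in TDESM (limma adjusted p = 0.883).

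Among enzymes that start O-GalNAc glycans, 1 of 13 was higher and 2 were lower in TDECC, 23.1% called against 42.7% of all genes. Their differences ran from -1.61 to 1.16, with a median of -0.11. Galnt1, a widely expressed initiating enzyme, read 9.06, 8.49 and 8.81 in TDECC, against 10.36, 10.39 and 10.44 in TDESM (-1.61, SE 0.16, limma adjusted p = 2.45e-04). It was lower by all 3 of its probe sets that passed, with differences of -1.80, -1.61 and -1.46, while its remaining probe set, near background, read -0.04. Galnt10, which prefers peptides that already carry GalNAc, read 6.94, 6.57 and 6.90 in TDECC, against 7.96, 7.96 and 8.44 in TDESM (-1.32, SE 0.18, limma adjusted p = 0.00112). Both calls were lost under poly-A centring, where the differences were -0.39 for Galnt1 and -0.10 for Galnt10. Galnt3, which glycosylates the hormone FGF23, was the one higher member. It read 6.41, 5.56 and 6.46 in TDECC, against 4.92, 5.03 and 5.01 in TDESM (1.16, SE 0.25, limma adjusted p = 0.00815).

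Galnt2 was bright in both strains, at 10.38 ± 0.20 in TDECC and 10.79 ± 0.16 in TDESM (SD, n = 3 each), a difference of -0.41 (SE 0.15, limma adjusted p = 0.0713). None of its 7 probe sets was called, with differences from -0.47 to 0.20. Galnt4, Galnt7 and Galnt11 showed wide spread among TDECC arrays. Galnt7 read 4.94, 6.36 and 7.07 in TDECC, against 5.69, 5.79 and 5.83 in TDESM. Galnt11, which modifies the receptor Notch1, read 7.66, 8.55 and 8.73 in TDECC, against 8.03, 8.01 and 8.10 in TDESM. In both, TDECC replicate 1 lay below TDESM and the other two above it, and without that array both passed (0.94, adjusted p = 0.0142 for Galnt7, and 0.59, adjusted p = 0.00851 for Galnt11). Galnt4 read 5.66, 7.35 and 7.11 in TDECC, against 6.70, 6.82 and 6.93 in TDESM. The other 6 members, Galnt5, Galnt6, Galnt13, Galnt14, Galnt16 and Galnt18, differed by -0.21 to 0.20 and were not called; 1 dimmer probe set of Galnt16 was lower in TDECC (-0.81).

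**Figure D2:**
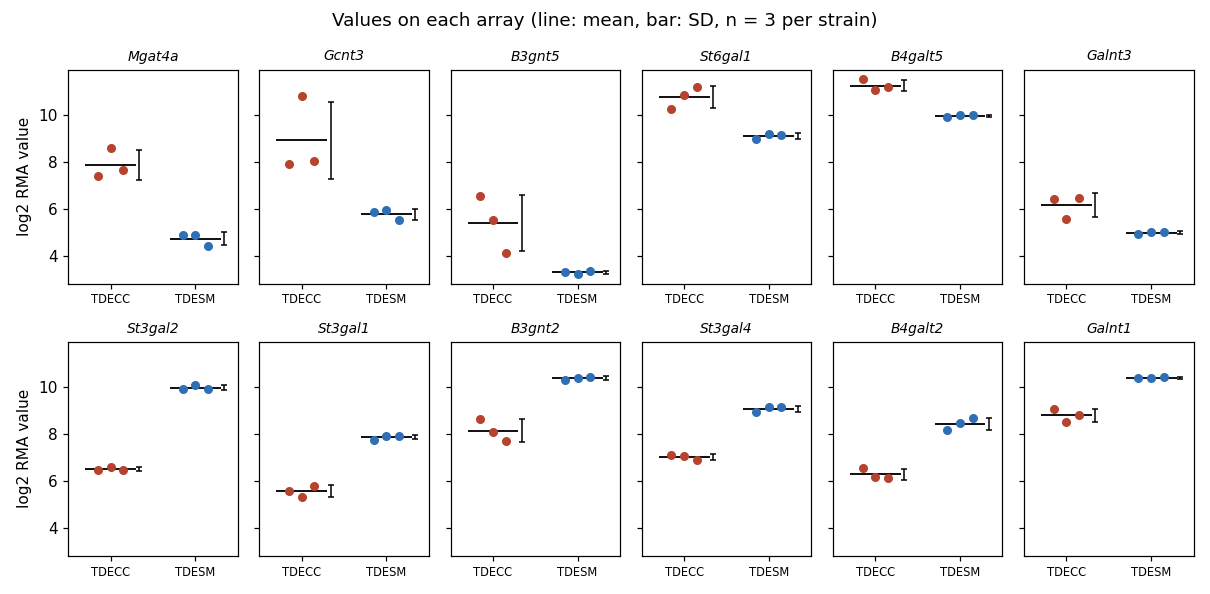
Log2 RMA values of 12 glycosyltransferase genes on each array (points), with the mean (line) and SD (bar) of the 3 arrays of TDECC (red) and TDESM (blue). The top row holds genes higher in TDECC, among which Gcnt3 and B3gnt5 spread widely over the TDECC arrays, and the bottom row genes lower in TDECC.

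Core and branching enzymes of O-glycans included the second largest rise. Gcnt3, a mucin-type enzyme that makes core 2 and core 4 branches in secretory epithelia, was higher in TDECC by 3.13 (SE 0.74, limma adjusted p = 0.0125). It read 7.90, 10.80 and 8.01 in TDECC, against 5.86, 5.95 and 5.50 in TDESM, so all TDECC arrays were higher but replicate 2 stood almost 3 log2 units above the other two. With TDESM replicate 3 left out it no longer passed (3.00, adjusted p = 0.0552). C1galt1c1, the chaperone that core 1 synthase needs, read 10.14, 9.93 and 10.00 in TDECC, against 9.39, 8.90 and 8.65 in TDESM (1.04, SE 0.20, limma adjusted p = 0.00514). C1galt1, the core 1 synthase itself, read 9.07, 9.74 and 7.99 in TDECC, against 8.28, 8.14 and 7.97 in TDESM, and did not pass (0.80, limma adjusted p = 0.163). Its other probe sets read 1.28 and 1.19, and the one at 1.19 was called over all probe sets (limma adjusted p = 0.0195). C1galt1 also passed when its probe sets were averaged (1.09, adjusted p = 0.0462), centred on housekeeping genes (1.02, adjusted p = 0.0216) and without TDECC replicate 3 (1.28, adjusted p = 0.00619). Gcnt4, a core 2 enzyme, was lower by 0.70 at 5.67 ± 0.42 in TDECC and 6.37 ± 0.19 in TDESM (SD, n = 3 each; limma adjusted p = 0.0436), but read 0.52 under poly-A centring. Gcnt4 did not pass when TDECC replicate 2 (adjusted p = 0.0830), TDECC replicate 3 (0.0857) or any 1 TDESM array (0.0874 to 0.153) was left out, or centred on housekeeping genes. Gcnt2, which makes the branched I antigen, read 8.98, 8.99 and 7.64 in TDECC, against 8.64, 8.78 and 8.78 in TDESM.

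The N-glycan branching family held the largest rise and 2 clear falls. Mgat4a, which adds a GlcNAc branch to the N-glycan core, read 7.37, 8.59 and 7.63 in TDECC, against 4.87, 4.88 and 4.40 in TDESM. The difference was 3.15 (SE 0.32, limma adjusted p = 2.60e-04), and a second, dimmer probe set read 0.38. Mgat4b, which makes the same branch, stood at 9.76 ± 0.23 in TDECC and 9.54 ± 0.12 in TDESM (SD, n = 3 each; limma adjusted p = 0.301). Mgat1, which adds the first GlcNAc of hybrid and complex N-glycans, read 8.05, 7.54 and 8.03 in TDECC, against 9.04, 9.29 and 9.27 in TDESM (-1.33, SE 0.18, limma adjusted p = 8.68e-04). Mgat2, a later enzyme on the same path, read 8.70, 8.31 and 9.47 in TDECC, against 10.60, 10.40 and 10.43 in TDESM (-1.65, SE 0.28, limma adjusted p = 0.00302). Mgat1 and Mgat2 were therefore lower on every TDECC array, though under poly-A centring they read -0.11 and -0.43 and were not called. Mgat3, which adds the bisecting GlcNAc, stood at 4.65 in TDECC and 4.60 in TDESM. Mgat5, the branching enzyme linked to invasion in several carcinomas, stood at 5.55 ± 0.12 in TDECC and 5.49 ± 0.11 in TDESM (SD, n = 3 each), a difference of 0.06 (SE 0.12, limma adjusted p = 0.761). Mgat5b, its relative, differed by 0.25 (limma adjusted p = 0.324). Under poly-A centring Mgat3, Mgat4b, Mgat5 and Mgat5b read 1.27, 1.44, 1.28 and 1.47 and were called higher.

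Of 7 galactosyltransferases 2 were higher, 3 lower and 2 not called in TDECC, with a median difference of 0.32. That is 71.4% called in a family of 7 genes, against 42.7% of all genes. B4galt5 and B4galt6, both lactosylceramide synthases of glycolipid synthesis, were higher in TDECC. B4galt5 read 11.50, 11.06 and 11.16 in TDECC, against 9.91, 9.97 and 9.97 in TDESM (1.29, SE 0.15, limma adjusted p = 4.13e-04), although its second, dimmer probe set read -0.37. B4galt6 read 10.08, 10.99 and 10.26 in TDECC, against 9.75, 9.77 and 9.39 in TDESM (0.81, limma adjusted p = 0.0394). B4galt6 did not pass when TDECC replicate 3 (adjusted p = 0.0534) or any 1 TDESM array (0.0846 to 0.137) was left out, or with cyclic loess. B4galt7, which adds the first galactose of the proteoglycan linker, was lower in TDECC at 6.26, 6.36 and 6.48, against 7.59, 7.68 and 8.0 in TDESM (-1.39, SE 0.15, limma adjusted p = 3.14e-04; -0.17 and not called under poly-A centring). B4galt2 read 6.56, 6.18 and 6.11 in TDECC, against 8.16, 8.45 and 8.66 in TDESM. This difference of -2.14 (SE 0.19, limma adjusted p = 1.09e-04) rests on 1 of its 3 probe sets; the others read -0.27 and -0.06. B4galt1, the main galactosyltransferase of N-glycans, stood at 9.65 ± 0.33 in TDECC and 10.26 ± 0.05 in TDESM (SD, n = 3 each), a fall of 0.61 (limma adjusted p = 0.0313) that became 0.61 higher under the poly-A centring. B4galt1 did not pass when TDECC replicate 3 (adjusted p = 0.0562) or any 1 TDESM array (0.0809 to 0.102) was left out, centred on housekeeping genes, with cyclic loess or averaged over its probe sets. B4galt3 and B4galt4 differed by 0.36 and 0.32 and were not called, though B4galt3 passed without TDECC replicate 2 (0.43, adjusted p = 0.0387).

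Chain-extending enzymes went both ways. B3gnt2, the main synthase of poly-N-acetyllactosamine, read 8.65, 8.09 and 7.69 in TDECC, against 10.28, 10.39 and 10.44 in TDESM (-2.23, SE 0.24, limma adjusted p = 3.18e-04). A second probe set was also lower (-1.01) and the remaining one, near background, read -0.08. B3gnt5, which starts lacto-series glycolipids, read 6.53, 5.53 and 4.13 in TDECC, against 3.32, 3.23 and 3.35 in TDESM, that is, a spread of 2.40 within TDECC above a flat low level in TDESM. Its difference was 2.10 (SE 0.54, limma adjusted p = 0.0183), and it failed the threshold when any 1 TDESM array was left out (adjusted p = 0.0572 to 0.0646). B3gntl1 read 5.37, 5.98 and 5.61 in TDECC, against 4.90, 5.07 and 5.13 in TDESM, and was higher by 0.62 (limma adjusted p = 0.0281). Leaving out TDECC replicate 3 (adjusted p = 0.0521) or any 1 TDESM array (0.0636 to 0.104) ended the call. B3gnt7, which extends keratan sulfate, differed by -0.20 (limma adjusted p = 0.302).

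Of the glucuronyltransferases, B3gat3, which completes the proteoglycan linker, stood at 8.16 ± 0.39 in TDECC and 8.26 ± 0.11 in TDESM (SD, n = 3 each; limma adjusted p = 0.760). B3gat1, which makes the HNK-1 epitope, differed by 0.14 (limma adjusted p = 0.563). B3gat2, also an HNK-1 enzyme, read 4.01, 3.91 and 4.38 in TDECC, against 3.68, 3.53 and 3.49 in TDESM, at background levels. It was higher by 0.53 (limma adjusted p = 0.0305), a call that ended when any 1 TDESM array was left out (adjusted p = 0.0622 to 0.105).

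Fucosyltransferases included Fut8, which adds the core fucose of N-glycans. Fut8 read 8.0, 8.39 and 9.66 in TDECC, against 10.29, 10.28 and 10.15 in TDESM (-1.56, SE 0.40, limma adjusted p = 0.0175). All TDECC arrays were lower, replicate 3 by the least. It no longer passed when TDECC replicate 2 (adjusted p = 0.0523) or any 1 TDESM array (0.0568 to 0.0622) was left out, or under poly-A centring (-0.34). Fut11 was lower at 4.57, 4.82 and 4.73 in TDECC, against 6.01, 5.81 and 6.07 in TDESM (-1.26, SE 0.13, limma adjusted p = 2.89e-04), or -0.04 and not called under poly-A centring. Fut2, the secretor enzyme that makes H antigen in epithelia, read 5.00, 8.78 and 6.44 in TDECC, against 5.35, 5.44 and 5.15 in TDESM. On this probe set, 1 TDECC array was below the TDESM values and another more than 3 log2 units above them. The difference of 1.43 (SE 0.85) did not pass (limma adjusted p = 0.228). It passed without TDECC replicate 1 (2.30, adjusted p = 0.0267) and centred on housekeeping genes (1.65, adjusted p = 0.0483). A dimmer probe set of Fut2 read 3.65, 5.94 and 4.03 in TDECC, against 3.48 on each TDESM array (1.06, not called). The remaining Fut2 probe set differed by 0.12. Fut1, which makes the same antigen, read 3.73, 3.83 and 3.35 in TDECC, against 3.16, 3.22 and 3.09 in TDESM, below background in both strains, and was higher by 0.48 (limma adjusted p = 0.0430). The Fut1 call ended when TDECC replicate 1 (adjusted p = 0.0854), TDECC replicate 2 (0.101) or any 1 TDESM array (0.102 to 0.129) was left out. Fut4 and Fut9, which make Lewis x, differed by 0.11 and 0.08, Fut9 at 2.68 in TDECC and 2.60 in TDESM.

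Of the 27 calls, 16 held in each of the 6 fits that left out 1 array and 11 were lost in at least 1. How many of the calls over all genes held in each of the 6 fits was not counted. Over all genes 32.4% to 34% were called without 1 TDESM array, and 41% to 45.3% without 1 TDECC array. The 16 were Mgat4a, St6gal1, B4galt5, Galnt3 and C1galt1c1 among the higher, and St3gal2, St3gal1, B3gnt2, St3gal4, B4galt2, Mgat2, Galnt1, B4galt7, Mgat1, Galnt10 and Fut11 among the lower. Taken gene by gene, the exact permutation p (two-sided) was 0.1 for each of the 27, the smallest value possible with 3 arrays against 3. Of the 61 genes 10 stood at or under the background level in both strains, and 3 of these (St3gal6, Fut1 and B3gat2) were among the calls. The share of all genes at that level, and of calls among them, was not counted.

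The spread among TDECC arrays was itself uneven over the family. In TDECC 14 of the 61 genes (23.0%) ranged over more than 1 log2 unit between arrays, while in TDESM 0 of the 61 did. Over all genes the shares were 13.6% in TDECC and 0.225% in TDESM. The 14 genes were Fut2, Gcnt3, B3gnt5, St6galnac4, Galnt7, St6galnac6, C1galt1, Galnt4, Fut8, St3gal5, Gcnt2, Mgat4a, Mgat2 and Galnt11. These ranges are those of the brightest probe set. The dimmer probe sets of C1galt1 also ranged over more than 1 log2 unit in TDECC. Those of St6galnac4 and Mgat4a did not, and those of Fut2 differed in this. Replicate 2 was the highest TDECC array for 8 of them, among which were Fut2, Gcnt3, C1galt1 and Mgat4a; replicate 3 was highest for 4 and replicate 1 for 2. Over all genes with such a range, replicate 2 was the highest for 39.0%. The difference between the 3′ and 5′ probe sets of beta-actin, a measure of RNA quality, was 1.18, 1.46 and 0.77 in TDECC and 0.99, 0.92 and 0.72 in TDESM, highest on TDECC replicate 2. The same difference for Gapdh was 0.08, 0.03 and 0.01 in TDECC and 0.08, 0.08 and 0.04 in TDESM, and did not single out that array. Their part in the spread was not tested.

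**Figure D3:**
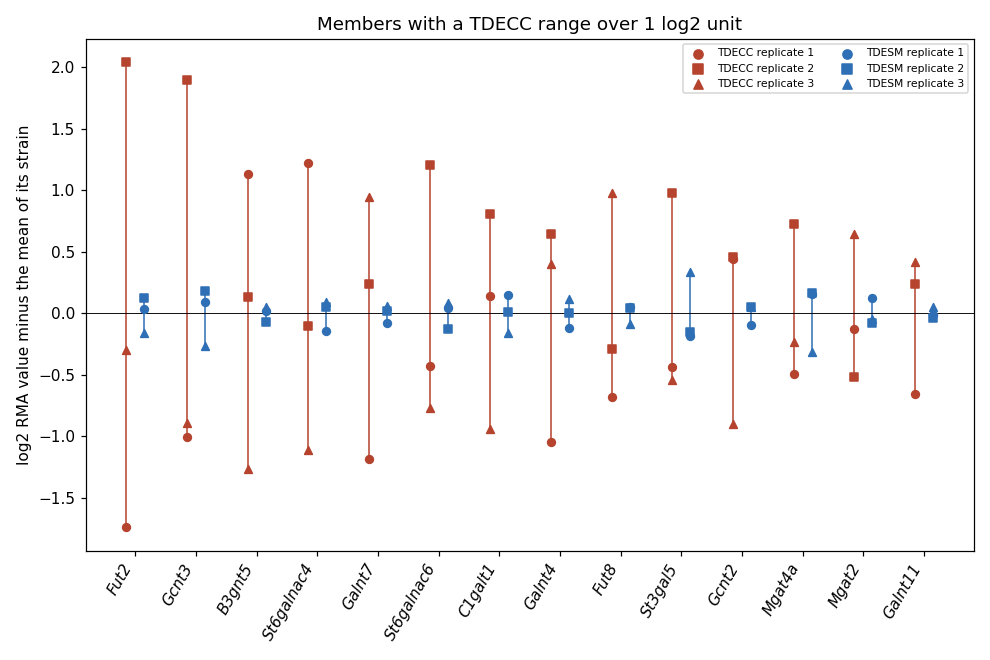
Log2 RMA value minus the mean of the strain on each array, for the 14 glycosyltransferase genes whose 3 TDECC arrays ranged over more than 1 log2 unit; symbols mark the replicate, red TDECC and blue TDESM. TDECC values spread by up to 3.78 (Fut2), and the TDESM arrays of the same genes range over at most 0.52 (St3gal5).

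Probe sets of the same gene often gave different sizes. Of the 61 genes 22 had several probe sets, 60 in all. At least 1 probe set was called for 14 of the 22, and every one for 4, St3gal1, St3gal2, St3gal4 and Galnt10. In 0 genes were probe sets called in opposite directions. The like shares over all genes with several probe sets were not counted, so these counts have no background to be read against. Over all probe sets of the family 13 of 99 were higher and 24 lower in TDECC, 37.4% in all, against 19.0% higher, 17.9% lower and 36.9% in all of 31042 probe sets. The groups did not overlap for 49 of the 99, against 48.9% of all probe sets.

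**Figure D4:**
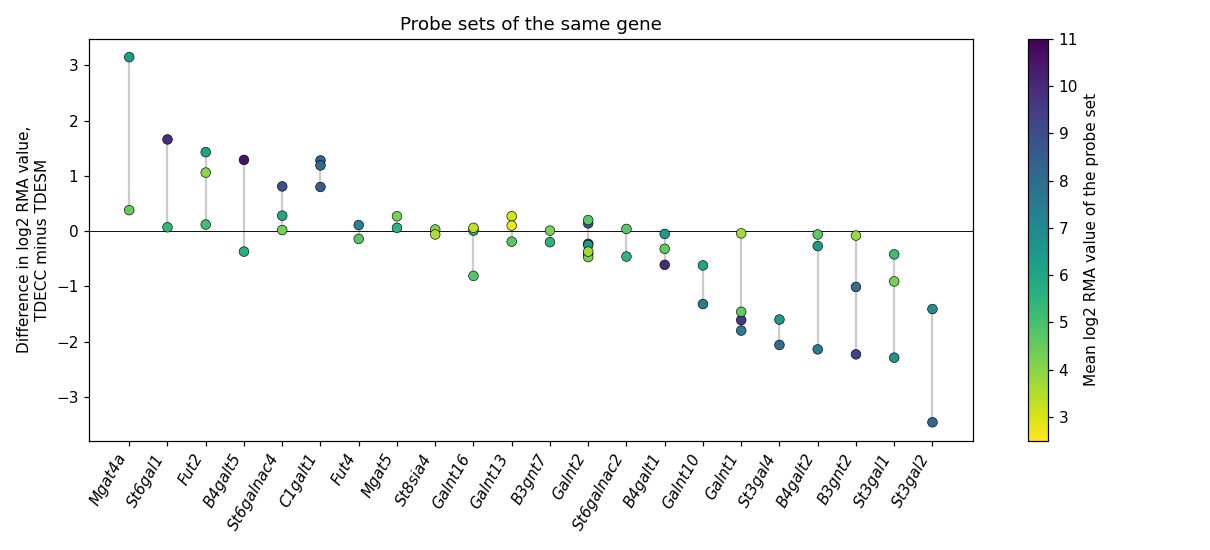
Difference in log2 RMA value, TDECC minus TDESM, of each probe set (points) of the 22 genes with several probe sets, coloured by the mean log2 level of the probe set. In Mgat4a, St6gal1 and B4galt5 the brighter probe set is above 0.5 and the dimmer one below it, whereas all probe sets of St3gal1, St3gal2 and St3gal4 lie below 0.

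Genes that supply or use these enzymes were read from lists written for the tissue. The list differences are as deposited. Poly-A centring moved the median of all genes by 1.22, and which list falls hold under it is not given. Of 24 genes for activated sugars and their Golgi transporters, 7 were higher and 7 lower in TDECC (median 0.04). That is 58.3% called, against 42.7% of all genes. Cmas, which activates sialic acid, read 11.59, 11.97 and 11.51 in TDECC, against 9.92, 10.09 and 10.13 in TDESM (1.64, limma adjusted p = 1.85e-04), and Gmds, on the path to GDP-fucose, differed by 1.41. Slc35a2, the Golgi carrier of UDP-galactose, read 6.12, 5.84 and 5.62 in TDECC, against 8.48, 8.67 and 8.83 in TDESM (-2.80, limma adjusted p = 1.67e-05). Uxs1, which makes the UDP-xylose of the proteoglycan linker, differed by -1.54. The list was called in both directions, with Cmas and Gmds higher and Slc35a2 and Uxs1 lower in TDECC.

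Among 17 other Golgi transferases 4 were higher and 6 lower (median -0.32), with Ugcg, the glucosylceramide synthase, at 1.42, B4galnt4 at 1.06, Pofut2, which fucosylates thrombospondin repeats, at -2.06 and B4galnt1, a ganglioside enzyme, at -1.88. B3galt6, the second galactosyltransferase of the proteoglycan linker, differed by -1.52 (limma adjusted p = 0.00177), while Xylt1 and Xylt2, which start that linker, read -0.19 and 0.00 and were not called. Of 12 carbohydrate sulfotransferases 0 were higher and 4 lower (median -0.14), led by Chst14, which sulfates dermatan, at -3.30 and Chst2 at -3.14. Of 13 mannosidases, sialidases and other trimming enzymes 2 were higher and 5 lower (median -0.17), with Man1a1 at 1.06, Neu2 at 0.85, Man2a1 at -1.87 and Man1c1 at -0.91. By list, 58.8% of the other transferases, 33.3% of the sulfotransferases and 53.8% of the trimming enzymes were called, against 42.7% of all genes.

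Of 11 mucins and related carriers 3 were higher and 1 lower in TDECC (median 0.80), 36.4% called against 42.7% of all genes. Muc1, a membrane mucin of epithelia, read 8.98, 10.71 and 9.18 in TDECC, against 5.51, 5.30 and 5.46 in TDESM (4.20, limma adjusted p = 2.57e-04). Muc5ac differed by 0.84, and Spn, a leukocyte sialomucin below background in both strains, by -0.48. Of 15 galectins and other lectins 4 were higher and 2 lower (median 0.10), 40% called against 42.7% of all genes. Lgals4, an epithelial galectin, read 12.28, 13.41 and 13.05 in TDECC, against 5.01, 4.68 and 4.65 in TDESM (8.13, limma adjusted p = 1.24e-06), and Lgals12 differed by 2.85. Lgals1, a galectin of stromal cells, read 6.72, 5.25 and 4.93 in TDECC, against 14.31, 14.33 and 14.38 in TDESM (-8.71, limma adjusted p = 6.20e-06), and Lgals8 differed by -2.27. These differences of Lgals4 and Lgals1 were larger than that of any of the 61 glycosyltransferases.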

How the data were processed

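RNA of 6 samples was hybridised to Affymetrix rat arrays, 3 per strain; groups and replicate numbers came from the titles. Trizol RNA and biotin-labelled cRNA were used, per the labels' protocols. The authors deposited log2 values; per the submitters' processing notes they used RMA (version not given in the sources used here). As usually run it includes quantile normalization, which removes any difference in total mRNA, and no detection calls were used. Of 31099 probe sets 57 controls were left out. In the platform annotation 20826 had 1 symbol, 436 several and 9780 were not listed; 0 symbols changed through Entrez identifiers. Each gene was read by its brightest probe set over the 6 arrays, with no filter on dim ones. Limma 3.58.1 in R 4.3.3 (lmFit and eBayes) tested TDECC minus TDESM, two-sided; p-values were adjusted by Benjamini-Hochberg across the 14217 genes, or over all 31042 probe sets where stated, at 0.05, with no replicate block. The limma step was tested on simulated data. The number of arrays limits the precision; no 2 arrays shared over 5.75% of identical values.

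Named genes were, by a written rule, the 12 largest differences each way with groups that do not overlap, well known members of each family, and up to 2 each way from each list; other members were added after their values were seen. B3gnt3, Gcnt1 and St6galnac1, which the rule also names, were not analysed here. Members and lists were chosen with earlier results of these data known. Alternatives were cyclic loess, centring on housekeeping genes or on poly-A controls, dropping the 33.3% dimmest genes, averaging each gene's probe sets, probe sets in place of genes, trend and robust eBayes, the replicate block, each array left out and a minimum log2 difference of 1.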

Additional observations from a re-analysis of the deposited data

How the results depend on the processing

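Trend and robust estimation and probe sets in place of genes reversed no difference, and cyclic loess, averaging the probe sets and the replicate block kept the counts of higher and lower genes within 1.5 times. Poly-A centring moved the counts: 46 genes and 76 probe sets were higher, 5 genes and 5 probe sets lower, and 11771 of all genes were called. Without the dimmest 33.3% of genes 6 were higher and 13 lower of 35 tested. In that fit 5269 of all 9477 genes tested were called (55.6%). Over all probe sets 11470 were called, and with a minimum log2 difference of 1, 3625 genes, 7 of the 61 genes higher and 8 of their probe sets higher. Leaving out 1 array gave 5 to 14 higher genes, 11 to 14 lower genes, 5 to 16 higher probe sets, 18 to 23 lower probe sets and 4605 to 6437 of all genes.

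The replicate block gave 9 higher and 14 lower genes and 5342 of all genes, ending the calls of B3gat2, Fut1, Gcnt4, St3gal6 and St6galnac2 and adding St6galnac3 (adjusted p = 0.0324). Same-numbered arrays deviated with correlations of -0.07, 0.02 and -0.14, and not every array correlated best with its own number, so the numbers were not taken as pairs.

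Reversed differences under poly-A centring were B3gnt7 1.02, Gcnt2 1.02, Gcnt4 0.52, B4galt1 0.61, B3gat3 1.13, Galnt4 1.11, Galnt18 1.08, Galnt13 1.03, Galnt14 1.01, Galnt2 0.81, St6galnac6 1.02, St6galnac2 0.76 and St6galnac3 0.63. Centred on housekeeping genes they were B3gnt7 0.02, Gcnt2 0.02, B3gat3 0.13, Galnt4 0.11, Galnt18 0.08, Galnt13 0.03, Galnt14 0.01 and St6galnac6 0.02. With cyclic loess they were St3gal3 -0.01 and Galnt16 -0.03, and averaged over probe sets St8sia4 -0.01, Fut4 -0.01, Galnt16 -0.25 and Galnt13 0.06. Leaving out 1 array, the differences ran from -0.25 to 0.18 for St3gal3, -0.10 to 0.17 for St8sia3, -0.04 to 0.08 for St8sia4, -0.42 to 0.25 for Gcnt2, -0.09 to 0.37 for Fut4, -0.30 to 0.09 for B3gat3, 0.00 to 0.12 for Mgat5, -0.06 to 0.11 for Mgat3, -0.12 to 0.94 for Galnt7, -0.05 to 0.07 for Galnt16, -0.43 to 0.41 for Galnt4 and -0.80 to 0.19 for St6galnac6. None of these genes but Gcnt4, B4galt1 and St6galnac2 was called as deposited. The cause of these shifts was not tested. With 10 of 61 genes at or under the background level in both strains, a low signal limits what can be read from them. Others, such as Mgat3 and St3gal3, lay under the upper quartile of the background markers in both strains.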
